A study of Mus musculus with 16 samples.

Results

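Mitochondrial ribosomal proteins are described here in 16 mouse hearts. The members were all genes of the deposited table whose symbol starts with Mrpl or Mrps followed by a digit and whose mean normalized read count over the 16 libraries was at least 10. All 77 genes with such a symbol met that minimum, 48 named Mrpl and 29 named Mrps, among 24421 genes in the table. By symbol 50 of the 77 genes were counted to the large subunit, with Mrps30 and Mrps18a, whose products belong there despite their symbols. The other 27 were counted to the small subunit, Mrps36 among them by its symbol alone. All 77 were among the 14298 genes that passed the filter on low values and were tested.

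Polyadenylated RNA was sequenced from hearts of adult mice aged about 3 months. Wild-type (WT) mice and mice overexpressing ERBB2 (OE), a receptor tyrosine kinase of the epidermal growth factor receptor family, had either sham surgery or a myocardial infarction (MI) by permanent ligation of a coronary artery, and hearts were taken 2 weeks later. Each of the 4 groups (WT sham, OE sham, WT MI and OE MI) held 4 animals, and the labels state no sex, no promoter or cell type for the overexpressed ERBB2 and no species for its sequence. The WT sham group was the control for OE sham as well as for WT MI, so those comparisons share 4 libraries, whereas OE against WT in sham hearts and OE against WT in infarcted hearts share none.

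Mitochondrial ribosomes translate the few proteins that mitochondrial DNA encodes, all of them core subunits of the respiratory chain and of ATP synthase. Their ribosomal RNA comes from mitochondrial DNA, but every ribosomal protein is encoded in the nucleus, made in the cytosol and imported. Many of the proteins descend from bacterial ribosomal proteins and keep their numbers, while others arose in mitochondria and mostly carry higher numbers. The heart, which depends on oxidative phosphorylation for contraction, is among the tissues that fail in people with inherited defects of these genes.

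Libraries held 11939093 to 17468914 recovered reads. Erbb2 averaged 124 ± 49.6 CPM (read counts scaled to the library total) in OE sham and 15.9 ± 0.742 CPM in WT sham hearts, and 111 ± 51.3 against 16.7 ± 3.67 CPM after infarction (mean ± SD, n = 4 each, two-sided exact permutation p = 0.0286 in both, the smallest that 4 against 4 allows). All 4 OE values lay above all 4 WT values in both. The 12 cardiomyocyte markers, such as Myh6 and Tnnt2, were detected in every library. Summed reads of 8 lung epithelial markers reached 9663 (WT) and 6633 (OE) after infarction against at most 34.3 in sham hearts. Infarcted libraries with over 1000 of them numbered 3 in WT and 2 in OE. The members' medians that rest on infarcted hearts are given with and without these 5. Summed thymocyte and T cell markers were 1127, 83.4, 1836 and 744 in the OE infarcted hearts. They were at most 91.6 in WT infarcted hearts and at most 112 in sham hearts. In OE against WT infarcted hearts 4 of the 5 tested markers of this list rose, so this signal goes with genotype there. Further, 1 WT sham library held 4946 reads of skeletal muscle markers against at most 2455 in any other library.

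ERBB2 overexpression in sham hearts went with lower transcripts of most mitochondrial ribosomal proteins. Of the 77 genes 59 fell, 1 rose and 17 did not pass (limma with Benjamini-Hochberg adjustment over all 14298 tested genes, adjusted p below 0.05), where 24.5% of all tested genes fell and 24.9% rose. The median log2 fold change was -0.42 over the 77 genes and 0.01 over all tested genes. In 57 of the 77, all 4 OE sham hearts lay below all 4 WT sham hearts, against 24.3% of all tested genes. The 77 genes together took 0.475% to 0.533% of the reads counted to genes in WT sham and 0.386% to 0.411% in OE sham hearts. Thus the ranges of this share did not overlap, and unlike normalized reads it does not depend on the size factors. It does depend on the library totals, which were 11939093 to 14886191 in WT sham and 15382099 to 17095751 in OE sham libraries. These totals hold the reads counted to genes, while the series design text states that reads were subsampled to a common depth. The members' own recovered reads overlapped, at 56669 to 79386 in WT sham and 61276 to 67982 in OE sham libraries. With library totals in place of size factors, the median of all tested genes moved to 0.17 and that of the members to -0.27. Of 14301 genes tested in that way 2374 fell and 5172 rose, and of the members 51 fell and 3 rose. The 8 falls that then missed the threshold were those of Mrpl17, Mrpl19, Mrpl34, Mrps7, Mrps18c, Mrps27, Mrps33 and Mrps36.

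The steepest falls were in proteins of both subunits. Mrps35 encodes a small-subunit protein found only in mitochondrial ribosomes. The 4 control hearts (WT, sham) gave 1002, 1277, 1253 and 1385 normalized reads for it, and the OE sham hearts gave 462, 528, 527 and 517. Each OE heart held about the same level, and the highest of them was far under the lowest WT heart. Mrps35 fell by 58.3% (log2 fold change -1.26, SE 0.09, adjusted p = 1.25e-07). Mrpl55 encodes a large-subunit protein. Its normalized reads were 998, 1077, 1286 and 1477 in WT sham and 529, 472, 643 and 488 in OE sham hearts. WT hearts spread more widely than OE hearts for this gene, yet the groups were apart (log2 fold change -1.17, SE 0.12, adjusted p = 1.24e-06). These were the 2 members with a log2 fold change below -1 in sham hearts.

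Mrpl14 encodes the counterpart of a bacterial protein at the interface between the subunits. Its normalized reads were 950.4, 1074, 1074 and 1173 in WT sham and 555, 491, 622 and 507 in OE sham hearts (log2 fold change -0.97, SE 0.11, adjusted p = 3.32e-06). The lowest WT value was above the highest OE value by a wide margin. Its locus overlaps that of Tmem63b, so reads of the shared stretch cannot be assigned with certainty. Mrps31, a mitochondrion-specific small-subunit protein, stood at 764, 881, 884 and 896 in WT sham and 424, 464, 412 and 456 in OE sham hearts (log2 fold change -0.96, SE 0.08, adjusted p = 2.95e-07). OE values kept within a narrow band, and WT sham replicate 1 was the lowest WT heart. Mrps9 encodes the counterpart of a bacterial protein of the small-subunit head that touches the transfer RNA being read. Normalized reads of Mrps9 were 1431, 1523, 1507 and 1516 in WT sham and 714, 740.3, 857 and 790.0 in OE sham hearts (log2 fold change -0.95, SE 0.09, adjusted p = 6.6e-07), and the WT hearts hardly differed among themselves.

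Mrpl42 had the most reads of all members. It encodes a mitochondrion-specific large-subunit protein. WT sham hearts held 5040.0, 6009.9, 6081 and 5787 normalized reads and OE sham hearts 2821, 3162, 3205 and 2649. All 4 OE hearts lay well below the lowest WT heart (log2 fold change -0.95, SE 0.08, adjusted p = 2.17e-07). Mrpl12, Mrps23 and Mrpl51 came next in mean level. The product of Mrpl12 belongs to the stalk that recruits translation factors and also binds the mitochondrial RNA polymerase. Its normalized reads were 2637, 2755, 2921 and 3356 in WT sham and 2101, 2128, 2474 and 2120.4 in OE sham hearts, and the groups were apart (log2 fold change -0.40, SE 0.09, adjusted p = 0.00126). Mrpl51, a mitochondrion-specific large-subunit gene, dropped from 2266 ± 118 to 1417 ± 103 normalized reads (mean ± SD, n = 4 each, log2 fold change -0.68, SE 0.07, adjusted p = 1.11e-06). Mrps23, a small-subunit gene, did not pass (2401 ± 282 against 2097 ± 139, log2 fold change -0.19, SE 0.12, adjusted p = 0.2), and the groups overlapped. Its locus overlaps that of Cuedc1.

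**Figure D1:**
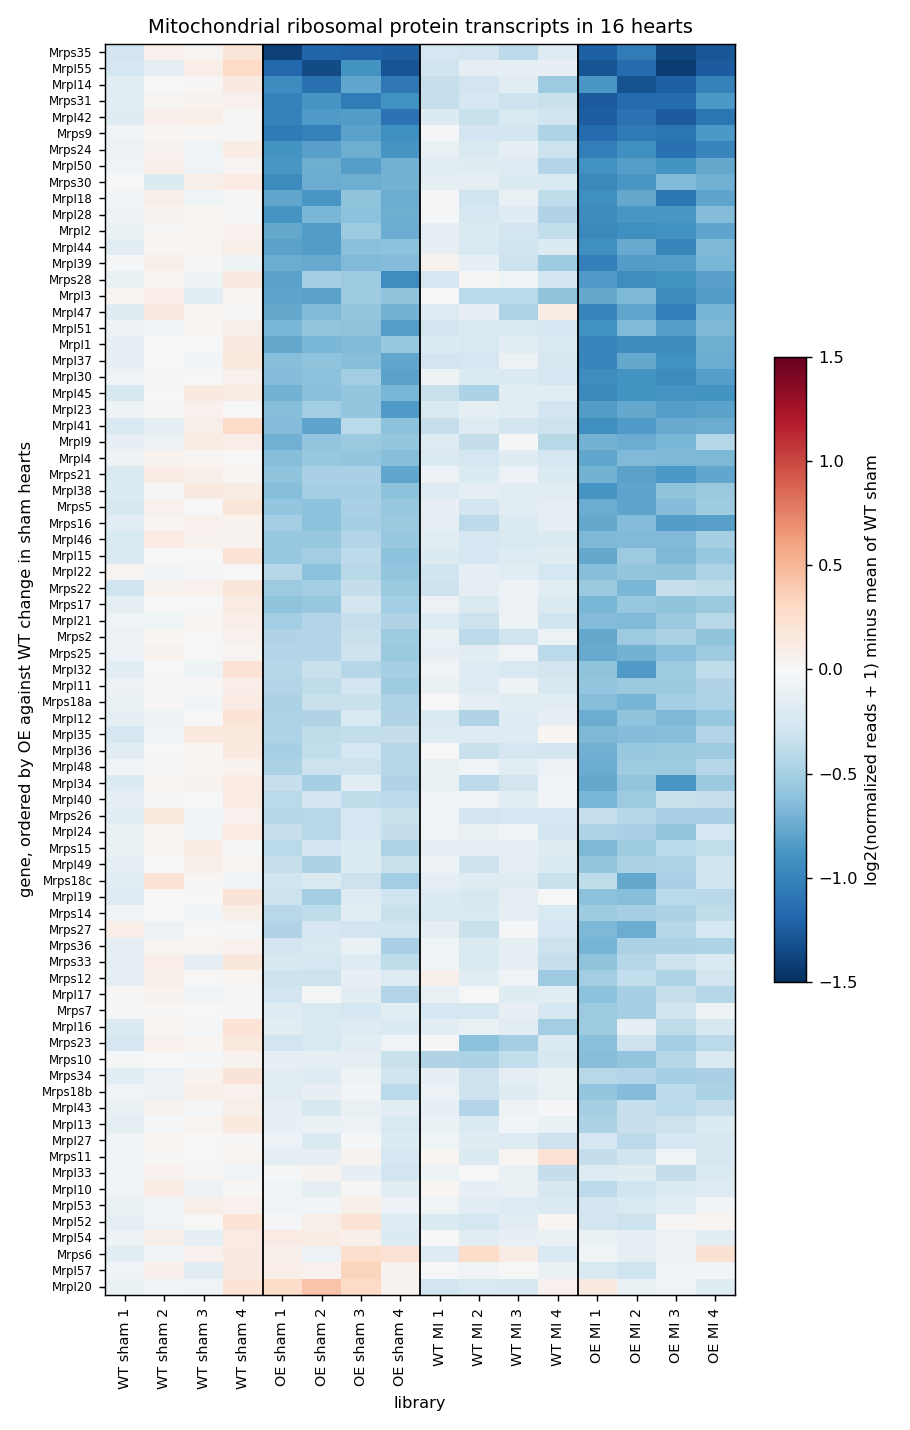
Each row is 1 of 77 mitochondrial ribosomal protein genes, ordered by the OE against WT change in sham hearts, and each column is 1 of 16 hearts. Colour gives log2(normalized reads + 1) minus the gene's mean over the 4 WT sham hearts. Most genes were lower in the 8 OE hearts than in the WT hearts, and those at the foot of the map, from Mrpl10 to Mrpl20, had log2 fold changes from -0.09 to 0.26 in sham hearts.

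Mrpl20 was the 1 member that rose in sham hearts. It encodes the counterpart of a bacterial protein needed early in large-subunit assembly. Normalized reads were 671, 698, 693 and 829 in WT sham and 875, 967, 876 and 745 in OE sham hearts. The groups overlapped, since WT sham replicate 4 was higher than OE sham replicate 4 (log2 fold change 0.26, SE 0.10, adjusted p = 0.0434). Without WT sham replicate 1, 2 or 3 or OE sham replicate 1, 2 or 3, Mrpl20 no longer passed, with adjusted p from 0.0829 to 0.135, nor without OE MI replicate 3 (adjusted p = 0.0521). Under library totals Mrpl54 and Mrpl57 also rose (adjusted p = 0.0438 and 0.00431), both large-subunit genes that did not pass otherwise (0.03 and 0.14). Mrps6, a small-subunit gene whose locus overlaps that of the inositol transporter gene Slc5a3, had 469, 507, 544 and 574 normalized reads in WT sham and 549, 489.6, 629 and 609 in OE sham hearts (log2 fold change 0.12, SE 0.12, adjusted p = 0.436). These groups overlapped. With library totals, 11 members had a log2 fold change above 0 in sham hearts.

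The members can be set in order by their place in the ribosome, in groups chosen after the values had been seen and therefore described by counts alone. A group of 7 large-subunit genes encodes proteins that line or surround the tunnel through which the new protein leaves, and all 7 fell in sham hearts, with a median of -0.61. Mrpl4, which lines the tunnel, fell from 1758 ± 71.1 to 1153 ± 30.1 normalized reads (log2 fold change -0.61, SE 0.05, adjusted p = 2.21e-07). Mrpl45, which holds the ribosome at the inner membrane, fell by 0.65 on the log2 scale, and Mrpl22, Mrpl23, Mrpl24, Mrpl17 and Mrpl47 are the others. Of 4 genes whose bacterial counterparts lie around the peptidyl transferase centre, Mrpl2 (-0.73) and Mrpl3 (-0.68) fell, and Mrpl16 (-0.20) and Mrpl27 (-0.14) did not pass. Of the 4 stalk genes, Mrpl11 (-0.41) and Mrpl12 (-0.40) fell. Their neighbours Mrpl10 (-0.09) and Mrpl53 (-0.03) did not pass, and no test compared the 4.

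Among the other 16 large-subunit genes with bacterial counterparts, 13 fell, Mrpl20 rose, and Mrpl13 and Mrpl33 did not pass. After Mrpl14, the lowest were Mrpl18 (-0.75) and Mrpl28 (-0.73), and Mrpl1, Mrpl9, Mrpl15, Mrpl19, Mrpl21, Mrpl30, Mrpl32, Mrpl34, Mrpl35 and Mrpl36 lay from -0.67 to -0.33. Of the remaining 19 large-subunit genes, mostly proteins that bacteria lack, 15 fell with a median over the 19 of -0.57. Beside Mrpl55, Mrpl42 and Mrpl51 these were Mrpl37, Mrpl38, Mrpl39, Mrpl40, Mrpl41, Mrpl44, Mrpl46, Mrpl48, Mrpl49, Mrpl50, Mrps18a and Mrps30. Mrpl43, Mrpl52, Mrpl54 and Mrpl57 did not pass. Mrpl44, a gene of human cardiomyopathy whose product resembles an RNA-cutting enzyme, went from 1002 ± 73.0 to 608 ± 48.9 normalized reads (log2 fold change -0.72, SE 0.08, adjusted p = 4.35e-06). Mrpl3, also a human cardiomyopathy gene, went from 1861 ± 147 to 1159.9 ± 111 normalized reads (log2 fold change -0.68, SE 0.11, adjusted p = 0.000107).

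In the small subunit, 4 of 5 genes of the head fell. Besides Mrps9, these were Mrps24 (-0.83), Mrps14 (-0.32) and Mrps7 (-0.21, adjusted p = 0.0462, but -0.05 with adjusted p = 0.59 under library totals), while Mrps10 (-0.18) did not pass though its groups did not overlap. Among 10 other genes with bacterial counterparts 7 fell (Mrps2, Mrps5, Mrps15, Mrps16, Mrps17, Mrps18c and Mrps21), and Mrps6, Mrps11 and Mrps12 did not pass. Mrps12 encodes the protein at the centre that checks codon pairing (-0.24). Among the remaining 12 small-subunit genes 9 fell, namely Mrps22, Mrps25, Mrps26, Mrps27, Mrps28, Mrps31, Mrps33, Mrps35 and Mrps36. Mrps18b, Mrps23 and Mrps34 did not pass.

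The 3 Mrps18 paralogs, which encode related proteins at different places of the ribosome, were read separately. Mrps18a, of the large subunit, fell from 1130.5 ± 76.4 to 854 ± 45.4 normalized reads (log2 fold change -0.40, SE 0.07, adjusted p = 0.000177), and its locus overlaps that of Rsph9. Mrps18c, the counterpart of the bacterial protein, had 346, 446, 392 and 372 normalized reads in WT sham and 315, 333, 310.2 and 269 in OE sham hearts, with no overlap (log2 fold change -0.34, SE 0.11, adjusted p = 0.0143). Mrps18b had 597, 581, 655 and 647 in WT sham and 556, 566, 601 and 469 in OE sham hearts, which overlapped (log2 fold change -0.18, SE 0.09, adjusted p = 0.0907). Mrps36, whose product is a part of the 2-oxoglutarate dehydrogenase complex, went from 1224, 1403, 1393 and 1423 in WT sham to 1112, 1158, 1271 and 969 in OE sham hearts. These groups overlapped through WT sham replicate 1 (log2 fold change -0.28, SE 0.09, adjusted p = 0.0149). Without WT sham replicate 2 Mrps18c no longer passed (adjusted p = 0.0549), nor did Mrps36 without OE sham replicate 4 (adjusted p = 0.0539). Under library totals neither passed, with log2 fold changes of -0.18 for Mrps18c (adjusted p = 0.104) and -0.12 for Mrps36 (adjusted p = 0.16). Within RA numbers 1 to 12, library numbers whose meaning the labels do not give, neither passed (adjusted p = 0.112 and 0.238).

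**Figure D2:**
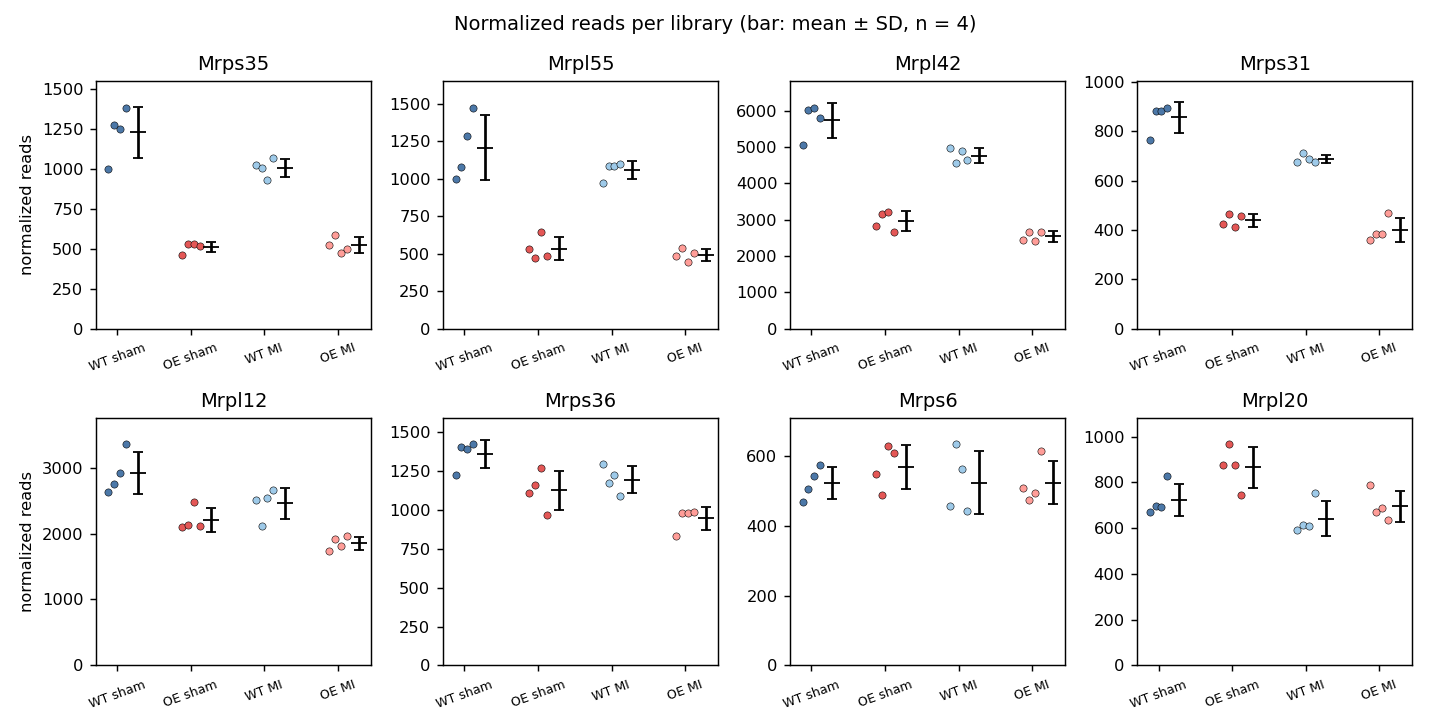
Normalized reads of 8 members in each of the 16 hearts, by group, on linear axes from 0; a dot is 1 heart and the bar beside it the group mean ± SD (n = 4). Mrps35, Mrpl55, Mrpl42 and Mrps31 have separate OE and WT groups after either surgery, whereas in Mrps6 the groups overlap.

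Large-subunit genes had a median log2 fold change of -0.48 in sham hearts, with 39 of 50 down, and small-subunit genes -0.34, with 20 of 27 down. Sorted by number alone, the 33 genes with numbers above those of the bacterial proteins, Mrps24 among them, had a median of -0.54, against -0.40 for the 44 with a bacterial number, Mrps18b among them. These medians were not tested against each other.

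After infarction the same comparison gave a similar picture. In infarcted hearts 60 of the 77 genes fell in OE against WT, none rose and 17 did not pass, where 16.3% of all tested genes fell and 15.5% rose (limma, Benjamini-Hochberg). Of the 17, 5 had an unadjusted p below 0.05. For the members DESeq2 gave 61 falls and edgeR 60, and neither gave a rise. Of all tested genes 2463 fell with DESeq2 and 2267 with edgeR. Over all 77 members 65 had an unadjusted p below 0.05, against 5909 of all 14298 tested genes. The median log2 fold change was -0.40 over the members and 0.01 over all tested genes. In 55 members all 4 OE hearts lay below all 4 WT hearts, against 13.6% of all tested genes. The 77 genes took 0.440% to 0.470% of the reads counted to genes in WT MI and 0.351% to 0.371% in OE MI libraries, again without overlap. Library totals were again apart, at 12747697 to 14297128 in WT MI and 14998464 to 17468914 in OE MI. The members' own recovered reads overlapped, at 59963 to 64300 in WT MI and 53584 to 64456 in OE MI libraries. Under library totals the median of all tested genes moved to 0.14 and that of the members to -0.27. Of 14301 genes tested in that way 1556 fell and 3849 rose, and of the members 52 fell. The 8 falls that then missed the threshold were those of Mrpl13, Mrpl43, Mrpl49, Mrps14, Mrps22, Mrps26, Mrps27 and Mrps34. Without the 5 infarcted libraries high in lung markers the members' median was -0.47, resting on 1 WT and 2 OE infarcted hearts. With summed lung and thymus markers as terms of the fit, 33 members fell with a median of -0.40. Of all 14298 tested genes 589 fell in that fit, against 2336 in the fit without these terms.

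Mrpl55 had 974, 1084, 1086 and 1102 normalized reads after infarction in WT hearts and 485, 539, 444 and 504 in those with OE. WT replicate 1 was the lowest of its group but stood far above every OE heart (log2 fold change -1.11, SE 0.12, adjusted p = 8.12e-06). Mrps35 had 1022, 1005, 929 and 1069 after infarction in WT hearts and 523, 589, 473 and 501 in those with OE (log2 fold change -0.95, SE 0.09, adjusted p = 5.44e-06). Mrpl42 had 4971, 4547, 4882 and 4630.3 in the WT and 2425, 2659, 2398 and 2672 in the OE hearts (log2 fold change -0.91, SE 0.08, adjusted p = 1.61e-06). All 3 were thus again among the lowest. Mrps24, the counterpart of a bacterial protein near the entry of the messenger RNA channel, had 1159, 1078, 1135 and 997 after infarction in WT hearts and 607, 662, 574 and 631 in those with OE, with no overlap (log2 fold change -0.82, SE 0.07, adjusted p = 1.61e-06). Mrps31 (log2 fold change -0.79, SE 0.08, adjusted p = 6.74e-06) and Mrps9 (log2 fold change -0.77, SE 0.09, adjusted p = 1.43e-05) were next.

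Of the genes named for their roles, Mrpl12 (-0.40, adjusted p = 0.00222), Mrpl3 (-0.46, adjusted p = 0.00476), Mrpl44 (-0.62, adjusted p = 5.15e-05) and Mrpl51 (-0.52, adjusted p = 4.03e-05) fell in infarcted hearts in limma. So did Mrps36 (-0.34, adjusted p = 0.00716), Mrps18a (-0.45, adjusted p = 0.000169) and Mrps18b (-0.35, adjusted p = 0.00536), while Mrps18c did not pass (-0.27, adjusted p = 0.0583). With lung and thymus terms Mrpl12, Mrpl3 and Mrps36 did not pass (adjusted p = 0.217, 0.284 and 0.315). Without the 5 lung-marked libraries Mrpl12 and Mrps18b missed the threshold (adjusted p = 0.0599 and 0.0538), at log2 fold changes of -0.44 for each. Mrps23 (-0.12), Mrps6 (0.01) and Mrpl20 (0.12) did not pass either. The sign of Mrps23 turned under library totals and under the lung and thymus terms.

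In both OE against WT comparisons 56 members fell, which is 94.9% of the 59 that fell in sham hearts and 93.3% of the 60 in infarcted hearts. Mrps7, Mrps18c and Mrps33 fell in sham hearts and did not pass after infarction, and the reverse held for Mrpl13, Mrpl43, Mrps18b and Mrps34. The 14 that fell in neither were Mrpl10, Mrpl16, Mrpl20, Mrpl27, Mrpl33, Mrpl52, Mrpl53, Mrpl54, Mrpl57, Mrps6, Mrps10, Mrps11, Mrps12 and Mrps23. As a description over 77 genes, which are not independent replicates, the 2 sets of log2 fold changes had a Pearson r of 0.95 and a Spearman rho of 0.94, and 75 genes had the same sign. No library was shared, but the genes have the same length and read depth in both.

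**Figure D3:**
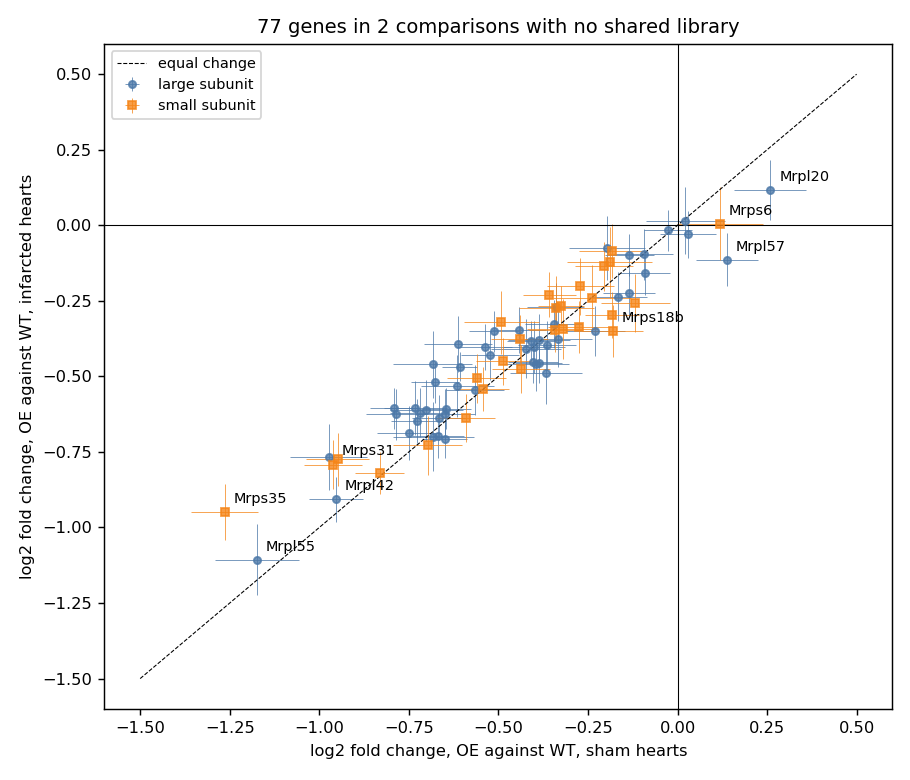
Log2 fold change of OE against WT in sham hearts (horizontal) and in infarcted hearts (vertical) for 77 genes; bars are SE, circles are large-subunit and squares small-subunit genes, and the dashed line marks equal change. Points run along the line, from Mrps35 and Mrpl55 at the lower left to Mrpl20 at the upper right.

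Infarction itself moved the members less. In WT hearts 7 of 77 genes fell and none rose against sham (limma, Benjamini-Hochberg), where 2.09% of all tested genes fell and 4.96% rose. By an unadjusted p below 0.05, 43 of the 77 differed, against 3738 of all 14298 tested genes. For the members DESeq2 and edgeR gave no rise. The median was -0.19, against -0.03 over all tested genes. In 20 members all 4 WT infarcted hearts lay below all 4 WT sham hearts, against 7.83% of all tested genes. The count of falls ran from 0 to 16 when 1 heart was left out, being 16 without WT MI replicate 1, 10 without WT sham replicate 1 and 0 without WT sham replicate 2. Of all tested genes 743, 143 and 34 fell in these fits, in that order, against 299 with all hearts. The members' count was 1 without WT MI replicate 2 or 3 or WT sham replicate 4 (68, 42 and 62 of all tested genes). It was 2 without WT MI replicate 4 or WT sham replicate 3 (146 and 168 of all tested genes). Among the OE hearts, which enter through the shared spread alone, it was 3 without OE sham replicate 1 (208 of all tested genes). It was 4 without OE sham replicate 2 or OE MI replicate 1 or 3 (220, 280 and 282 of all tested genes). With lung and thymus terms the count was also 0, at a median of -0.11, but there 0 of all 14298 tested genes fell and 5 rose. Such a count cannot tell the members from other genes. Without the 3 WT and 2 OE infarcted libraries high in lung markers, which leaves 1 WT infarcted heart, the median was -0.13. In the same comparison 9 of 10 fibroblast markers rose (median 0.94) and 7 of 10 macrophage markers rose (median 0.64). Of the 12 cardiomyocyte markers 2 fell, with a median of -0.22 and all 12 log2 fold changes below 0. Summed macrophage markers were 7157 to 8899 normalized reads in WT sham and 12309 to 21201 in WT MI libraries. The part of these cell types in the members' change was not tested.

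Mrps10, which in sham hearts had not passed between genotypes, was the lowest of the 7. It stood at 422, 431, 424 and 446 normalized reads in WT sham and 315, 309, 333 and 364 in WT infarcted hearts, without overlap (log2 fold change -0.39, SE 0.09, adjusted p = 0.021). Mrps31 had 674, 711, 687 and 677 in WT infarcted hearts, below every WT sham heart (log2 fold change -0.31, SE 0.08, adjusted p = 0.0311). Mrpl4 (log2 fold change -0.23, SE 0.05, adjusted p = 0.0135), Mrpl51 (log2 fold change -0.25, SE 0.07, adjusted p = 0.0382) and Mrpl50 (log2 fold change -0.24, SE 0.07, adjusted p = 0.0457) also had separate groups. So did Mrpl42 (log2 fold change -0.27, SE 0.08, adjusted p = 0.0468), whereas Mrpl45, with 1071, 1254, 1380.1 and 1365 in WT sham and 999, 906, 1118 and 1123 in WT infarcted hearts, overlapped through WT sham replicate 1 (log2 fold change -0.29, SE 0.08, adjusted p = 0.0494).

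In OE hearts no member passed between infarction and sham surgery in limma, where 0.00699% of all tested genes fell and 0% rose. An unadjusted p below 0.05 was found for 31 of the 77 and for 1448 of all 14298 tested genes. DESeq2 gave 2 falls among the members and edgeR none, where 24 and 1 of all tested genes fell. The median over the members was -0.16, and -0.01 over all tested genes. Without the 5 lung-marked libraries no member passed and the median was -0.15, and with lung and thymus terms none passed and it was -0.08. The lowest was Mrps18b, with 556, 566, 601 and 469 in OE sham and 414, 393, 473 and 446 in OE infarcted hearts (log2 fold change -0.34, SE 0.09, adjusted p = 0.33). Whether the infarct effect differed between genotypes was tested as an interaction, and no member passed in limma, DESeq2 or edgeR, where 0.0769% of tested genes had a negative and 0.00699% a positive interaction. Just 1 member had an unadjusted p below 0.05, against 1416 of all 14298 tested genes. Over the members the interaction ran from -0.25 (Mrpl57) to 0.31 (Mrps35, SE 0.13, adjusted p = 0.452). The median interaction was 0.02, and it was -0.02 without the 5 lung-marked libraries and 0.06 with lung and thymus terms, with no member passing in either. The fall of 7 genes in WT and of none in OE hearts is therefore no shown difference between genotypes.

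Other genes of mitochondrial translation were counted from lists written out with earlier results of these data known. A further 6 mitoribosome proteins go under other symbols, and all 6 fell in both OE against WT comparisons. Ptcd3, a small-subunit protein that binds RNA, went from 2738 ± 189 to 1620.2 ± 134 normalized reads in sham hearts (log2 fold change -0.76, SE 0.08, adjusted p = 2.16e-06). Dap3, a small-subunit protein that binds GTP, went from 1761 ± 63.9 to 1099.7 ± 32.7 normalized reads (log2 fold change -0.68, SE 0.08, adjusted p = 3.38e-06), followed by Chchd1 (-0.56), Ict1 (-0.49), Gadd45gip1 (-0.38) and Aurkaip1 (-0.32). They were not tested against the members.

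Of 25 assembly factors of the mitochondrial ribosome, 22 fell and 1 rose in sham hearts, and 19 fell and none rose in infarcted hearts. The lowest in sham hearts were Mrm1 (log2 fold change -1.08, SE 0.19, adjusted p = 0.000221), a methyltransferase of the large ribosomal RNA, Mtg2 (log2 fold change -1.01, SE 0.11, adjusted p = 2.5e-06), a GTPase of large-subunit assembly, and Tfb1m (from 157 ± 19.9 to 77.8 ± 9.76 normalized reads, adjusted p = 0.000161), which methylates the small ribosomal RNA. Mpv17l2 was the one that rose (log2 fold change 0.38, SE 0.10, adjusted p = 0.00544). Of 14 translation factors 12 fell in each comparison and none rose, among them Mtrf1 (-0.92 in sham hearts) and Mtrf1l (-0.79), which encode release factors, the initiation factor gene Mtif2 (-0.84) and Lrpprc (-0.77), whose product stabilises mitochondrial messenger RNAs. Of 13 genes of mitochondrial DNA transcription and replication 10 fell in sham and 9 in infarcted hearts. Tfam, which packages mitochondrial DNA, fell by 0.59 on the log2 scale in sham hearts (adjusted p = 1.03e-05), and Polrmt, the RNA polymerase, by 0.42 (adjusted p = 0.000381). Of the subunits encoded by mitochondrial DNA, 0 were found in the deposited table under the symbols looked for, so their transcripts could not be followed.

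Nuclear subunits of the respiratory chain and ATP synthase fell further than the ribosomal proteins by their median. Of 82 tested, 77 fell and none rose in each comparison, with medians of -0.80 in sham and -0.72 in infarcted hearts. Cox7a1, the subunit of cytochrome c oxidase of heart and muscle, was the lowest in sham hearts (log2 fold change -1.46, SE 0.10, adjusted p = 9.25e-08). Cytosolic ribosomal proteins, the counterpart outside mitochondria, had a median of -0.02 in sham hearts with 12 of 80 down and 5 up, and of -0.16 in infarcted hearts with 35 down and 2 up. Rpl3l, the heart and muscle paralog of Rpl3, fell (log2 fold change -3.20, SE 0.28, adjusted p = 3.89e-07) and Rpl3 rose (log2 fold change 0.77, SE 0.12, adjusted p = 6.07e-05) in sham hearts, a pair of related genes between which reads may be shared. The medians of these families were not tested against the members.

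**Figure D4:**
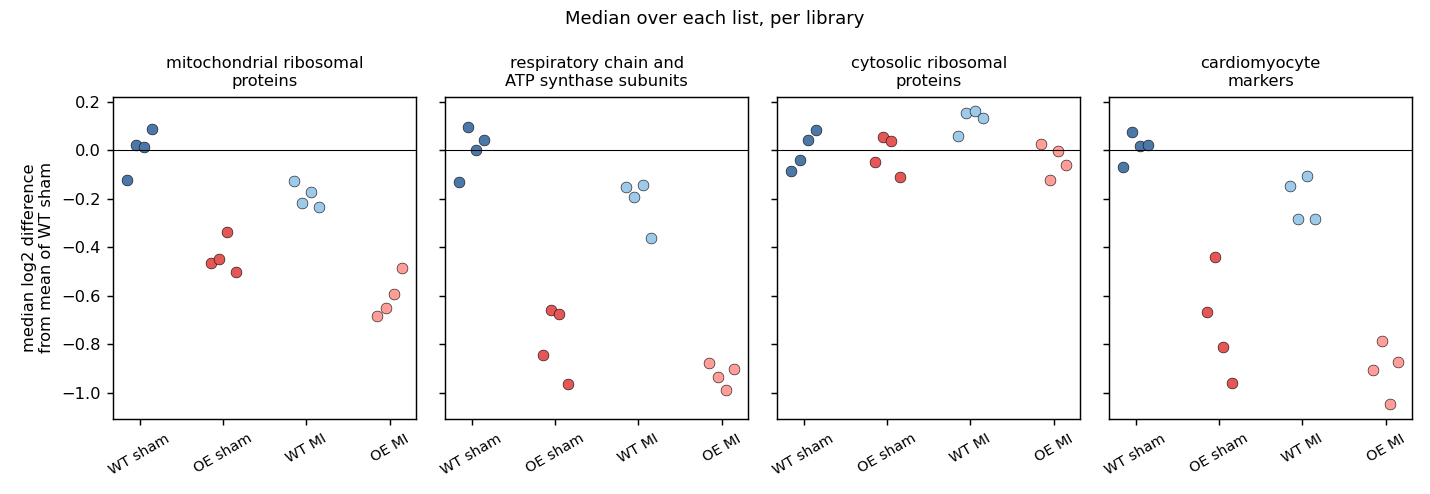
Median over each gene list of log2(normalized reads + 1) minus the gene's mean in WT sham hearts, with 1 dot for each of 16 hearts. In OE hearts the mitochondrial ribosomal proteins lay between -0.69 and -0.34, all below the WT hearts, while cytosolic ribosomal proteins lay between -0.12 and 0.06.

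Markers of cell types moved along with the genotype. Of 12 cardiomyocyte markers 8 fell and 1 rose in OE against WT sham hearts, with a median of -0.74, and their summed normalized reads were 1244900 to 1424480 in WT sham and 808935 to 962887 in OE sham hearts. In infarcted hearts 7 fell and 2 rose, with sums of 1126570 to 1214420 in WT and 757276 to 887860 in OE hearts. None of the 12 was at 0 in any library. Of 10 fibroblast markers 6 rose in sham hearts, where their sums were 29128 to 33267 in WT and 111697 to 135110 in OE hearts. In infarcted hearts 5 fibroblast markers rose, and the sums were 57038 to 104925 in WT and 103593 to 147311 in OE hearts. Of 10 macrophage markers 5 rose in sham hearts (median 0.46), with sums of 7157 to 8899 in WT and 9449 to 11803 in OE hearts, and in infarcted hearts 0 passed in limma and 0 had an unadjusted p below 0.05. Of 10 endothelial markers 2 fell in sham hearts and 1 in infarcted hearts. None of the fibroblast, macrophage or endothelial markers was at 0 in any library. The part of these cell types in the fall of the members was not tested. In bulk heart RNA fewer cardiomyocytes and less RNA per cardiomyocyte cannot be told apart.

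Among 12 regulators of mitochondrial biogenesis, 7 fell and 3 rose in sham hearts, and 6 fell and 1 rose in infarcted hearts. Ppargc1a, the coactivator of many mitochondrial genes, went from 2486 ± 238 to 942 ± 116 normalized reads (log2 fold change -1.40, SE 0.43, adjusted p = 0.0132) in sham hearts. The nuclear receptor genes Ppara (-1.48), Esrra (-0.62) and Esrrg (-0.73) fell there too. Gabpa encodes the DNA-binding subunit of GABP, an ETS-family factor known to bind promoters of mitochondrial genes, and fell (log2 fold change -0.48, SE 0.08, adjusted p = 0.000173). Its partner Gabpb1 rose (log2 fold change 0.35, SE 0.08, adjusted p = 0.0024), and so did Pprc1 (0.64) and Myc (1.32). Nrf1 (log2 fold change 0.21, SE 0.09, adjusted p = 0.0659) and Yy1 (log2 fold change -0.05, SE 0.06, adjusted p = 0.493), which encode further factors known at such promoters, did not pass.

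Promoters were read because the members fell together while 14 of them fell in neither comparison. The windows were those of RefSeq on GRCm38.p6 from 250 bases before to 50 after a start, and 68 of the 77 genes matched with 74 windows, the others being Mrpl4, Mrpl13, Mrpl15, Mrpl19, Mrpl38, Mrpl54, Mrps28, Mrps34 and Mrps35. Motifs were searched on both strands as exact letters. The ETS/GABP motif CCGGAAG was found for 25 of the 68 genes (36.8%) and for 18.3% of 10818 tested genes with a window. The motif GCATGCGC of the NRF1 core was found for 8 members (11.8%, against 5.57%) and the YY1 motif AAGATGG for 13 (19.1%, against 7.96%). The E-box CACGTG was found for 5 members (7.35%, against 11.5%). The ESRRA motif TNAAGGTCA was found for none of the 68 and for 0.887% of the tested genes. None of these motifs contains another, though 2 copies of the NRF1 core can overlap on opposite strands.

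The ETS/GABP motif did not stand in the promoters of all members that fell. In sham hearts 16 of the 53 matched members that fell held it (30.2%), and 9 of the 15 others (60.0%). Of the 20 matched members with the lowest log2 fold changes 3 held it, and of the 20 with the highest 12 did. Members with the motif had a median of -0.34 in sham hearts and those without it -0.54, and after infarction the medians were -0.34 and -0.46. These values are descriptions without a test, and a match of letters is neither a shown binding site nor a cause.

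**Figure D5:**
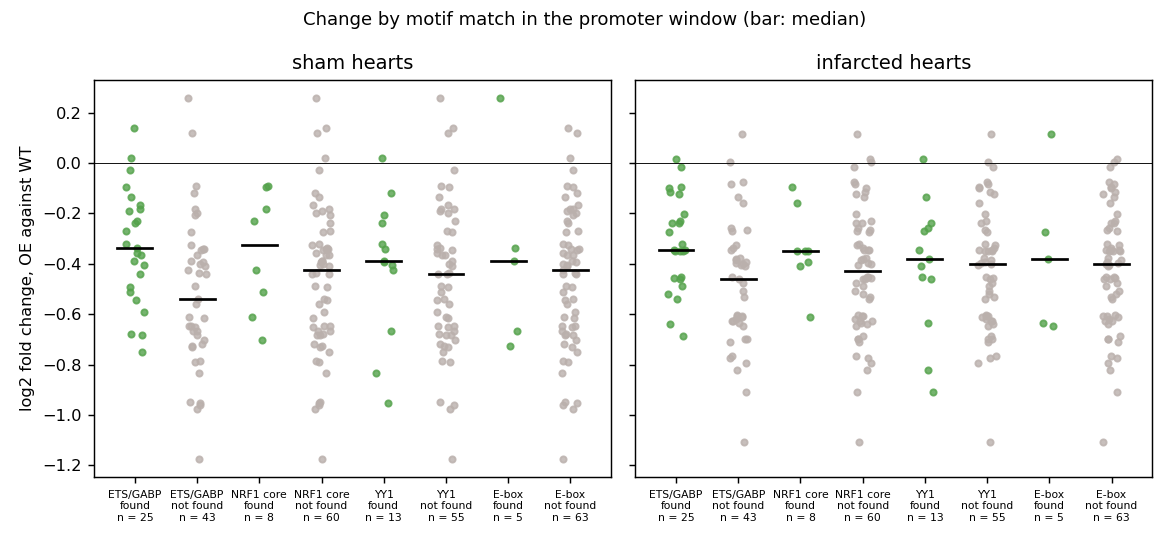
Log2 fold change of OE against WT for the 68 members with a promoter window, in sham (left) and infarcted hearts (right), split by whether a motif was found; a dot is 1 gene and the bar the median, and horizontal scatter has no meaning. Genes with the ETS/GABP motif lie higher by their median (-0.34 against -0.54 in sham hearts), and the lowest genes lie among those without it.

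The 100 bases before the start are shown for 8 members whose stretch overlaps no other RefSeq gene, with motif letters in capitals. The first 3, Mrpl42 (chr10:95501950-95502049 on the minus strand), Mrps9 (chr1:42851133-42851232 on the plus strand) and Mrps24 (chr11:5707702-5707801 on the minus strand), were among the 7 lowest members in sham hearts, and none of the motifs stands in the stretch shown, while the full windows of Mrpl42 and Mrps24 hold the YY1 motif.
Mrpl42: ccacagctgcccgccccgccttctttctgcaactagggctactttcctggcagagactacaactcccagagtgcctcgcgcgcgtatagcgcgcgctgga
Mrps9: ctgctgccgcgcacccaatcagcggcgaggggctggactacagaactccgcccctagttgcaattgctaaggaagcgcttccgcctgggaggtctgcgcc
Mrps24: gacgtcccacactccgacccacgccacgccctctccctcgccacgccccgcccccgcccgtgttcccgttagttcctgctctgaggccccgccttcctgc
Mrpl3 (chr9:105053168-105053267 on the plus strand) and Mrpl34 (chr8:71464826-71464925 on the plus strand) fell (-0.68 and -0.37) and hold the ETS/GABP motif, and Mrpl32 (chr13:14613038-14613137 on the minus strand, -0.42) holds copies of the NRF1 core.
Mrpl3: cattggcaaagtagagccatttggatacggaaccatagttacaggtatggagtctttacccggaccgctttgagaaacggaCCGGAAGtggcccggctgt
Mrpl34: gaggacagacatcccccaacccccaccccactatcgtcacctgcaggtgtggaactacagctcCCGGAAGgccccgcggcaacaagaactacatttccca
Mrpl32: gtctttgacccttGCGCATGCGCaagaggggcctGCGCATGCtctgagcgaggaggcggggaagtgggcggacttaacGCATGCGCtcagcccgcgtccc
Mrpl52 (chr14:54426809-54426908 on the plus strand), which did not pass (0.02), holds the YY1 motif and, on the opposite strand, the ETS/GABP motif, and Mrpl20 (chr4:155802778-155802877 on the plus strand), which rose, holds the E-box.
Mrpl52: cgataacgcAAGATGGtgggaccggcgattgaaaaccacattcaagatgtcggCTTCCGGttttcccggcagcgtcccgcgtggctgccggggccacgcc
Mrpl20: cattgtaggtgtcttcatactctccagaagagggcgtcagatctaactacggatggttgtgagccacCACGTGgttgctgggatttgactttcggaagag

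Mrpl46 and Mrps11 are divided by a short stretch. They start on opposite strands of chromosome 7, and 41 bases lie between their starts (chr7:78783090-78783130, GRCm38.p6, plus strand), with none of the motifs in them.
Mrpl46 and Mrps11: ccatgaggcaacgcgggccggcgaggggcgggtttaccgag
Mrpl46 went from 466, 597, 568 and 566 normalized reads in WT sham to 367, 368, 402 and 368 in OE sham hearts, without overlap (log2 fold change -0.54, SE 0.08, adjusted p = 3.12e-05). Mrps11 went from 316, 333, 328 and 338 to 298, 301, 342 and 274, and its groups overlapped (log2 fold change -0.12, SE 0.10, adjusted p = 0.323). A large-subunit gene that fell and a small-subunit gene that did not pass thus start within these few bases of each other, though their changes were not tested against each other.

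Compared per transcript length, with the longest GENCODE M21 principal transcript of each gene as the length, levels in WT sham hearts ran from 6.06 (Mrps25) to 542 CPM per kilobase (Mrpl42), with a median over 77 genes of 39.8. In OE sham hearts the median was 33.8. Mrps21 (156), Mrpl12 (140) and Mrpl30 (135) followed Mrpl42 in CPM per kilobase in WT sham hearts. The order depends on the transcript taken as the length. By their RefSeq positions 25 members overlap another gene, 20 of them a protein-coding one, and the sources used here do not state whether counting used the strand.

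The authors' deposited table gave the members much the same calls. In the authors' deposited table the members that fell numbered 58 in OE against WT sham hearts and 60 in infarcted hearts at their adjusted p below 0.05, and all of these were among the falls counted here. The authors' deposited table has 9 members that fell in WT infarcted against WT sham hearts, including the 7 found here, and 2 in the OE hearts. The share of all genes called in the authors' columns was not counted.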

How the data were processed

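Members and gene lists were chosen with earlier results of these data known. Per the series design text, single reads were trimmed with cutadapt, aligned to mm10 with TopHat 2.0.10, counted over RefSeq genes with HTSeq-count 0.6.1p1 and tested with DESeq2 1.6.3, after random subsampling of reads to a common depth. The aligner and test are also in the submitters' processing notes. The 16 columns deposited by the authors hold a signal: read counts per gene, scaled by a size factor for each column. Further deposited columns hold the authors' log2 fold changes and p-values, per the file headers.

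The deposited signal values were tested with limma 3.58.1 (R 4.3.3), with a trended variance on log2(value + 1), for genes at 10 or more in at least 4 libraries, with 1 mean per group over all 16 libraries. Benjamini-Hochberg adjustment ran over all tested genes, with 0.05 as the threshold on adjusted p. SE is the moderated standard error, and SD is over the 4 hearts of a group. Whole reads were recovered from the smallest step of each column, 100% of values being whole within 0.001, and served for CPM, edgeR 4.0.16 and DESeq2 1.42.0. In edgeR, 57 members fell and 1 rose in OE against WT sham hearts, and 3258 and 3809 of all tested genes did. The fit was also run on simulated data, with the same dispersion for every gene and far fewer changed genes than were called here. That run checked the code, not the results in these hearts.

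Genes were named by a rule: up to 6 lowest among the members that fell in a comparison and up to 6 highest among those that rose. The rule also took any that passed against the direction of most, the 4 with the highest mean, and 8 chosen for their biology. It did not take the members with the smallest falls. Other genes named as examples were chosen after their values were seen. From each further list up to 4 genes with the largest change were named, beside a few chosen after their values were seen. Rps6 kinases, pseudogenes and Rps19bp1 were left out of the cytosolic ribosomal proteins. Replicate numbers were not treated as pairs, since correlations of same-numbered libraries' deviations ran from -0.34 to 0.27 over 24 pairs. Other tools were Python 3.11.15, pandas 2.3.3 and matplotlib 3.10.9.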

Additional observations from a re-analysis of the deposited data

Results flagged for a closer look

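Each gene named by the rule was examined in each group for a heart far from its nearest neighbour. The distance had to be a large share of the group's whole range (Dixon's test at 95%). Of 84 such groups 10 held one, and chance gives about 1 in 20. In WT sham hearts, replicate 4 was high for Mrpl20 (828.7 normalized reads), and replicate 1 was low for Mrps31 (764) and Mrps36 (1224). In OE sham hearts, replicate 3 was high for Mrpl12 (2474) and replicate 4 low for Mrps10 (342). In WT infarcted hearts, replicate 4 was high for Mrpl20 (754) and low for Mrpl50 (874), and replicate 1 was low for Mrpl55 (974). In OE infarcted hearts, replicate 1 was low for Mrpl45 (642) and Mrps36 (836). In sham hearts, without WT replicate 4 the log2 fold change of Mrpl20 was 0.33 (adjusted p = 0.0176).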

How the results depend on the processing

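In OE against WT sham hearts the members that passed numbered 55 to 61 with 1 heart left out. Within RA numbers 1 to 12, the library numbers whose meaning the labels do not give, 45 members fell and 1 rose. There 2869 of all tested genes fell and 2859 rose. In infarcted hearts 56 to 62 passed with 1 heart left out, 33 with lung and thymus terms and 39 without the 5 lung-marked libraries, an alternative chosen after seeing the data. With lung and thymus terms the calls over all tested genes in infarcted hearts also dropped, to 589 falls from 2336. Medians with 1 heart left out ran from -0.47 to -0.37 in sham and -0.44 to -0.37 in infarcted hearts, and were -0.27 in both with library totals. For infarction in WT hearts the 7 falls became 19 with DESeq2, 3 with edgeR, 2 with library totals and 4 with no filter. Of all tested genes 670, 165, 70 and 191 fell in these fits, in that order, against 299 in the main fit. The members' falls became 4 with only the 2 groups and 4 with the replicate block, where 169 and 159 of all tested genes fell. They became 0 to 16 with 1 heart left out (medians -0.23 to -0.17), where 34 to 743 of all tested genes fell. With RA numbers 1 to 12 they became 0, where 11 of all tested genes fell. They also became 0 with lung and thymus terms, where 0 of all tested genes fell. For infarction in OE hearts DESeq2 gave 2 falls, and with 1 heart left out 0 members passed there and 0 in the interaction. With the replicate block 59 members fell in sham and 59 in infarcted hearts, where 3416 and 2237 of all tested genes fell. Mrpl20 no longer passed in that fit (adjusted p = 0.0721). Mrpl20 also missed the threshold with no filter (adjusted p = 0.0546) and with lung and thymus terms (adjusted p = 0.102). The sign of Mrps6 in infarcted hearts, which did not pass, turned with DESeq2 (-0.0036), RA numbers 1 to 12 (-0.0692) and without WT replicate 1 (-0.055), WT replicate 4 (-0.0692) or OE replicate 4 (-0.0731), and that of Mrps23 turned with library totals (0.007) and lung and thymus terms (0.1151). The fold of Erbb2 was 6.74 to 9.21 in sham and 5.39 to 7.67 in infarcted hearts with 1 heart left out. The causes were not tested. Limits are 4 hearts per group, a normalization that moves all genes together, and libraries with lung reads among the infarcted hearts.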

Other observations

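The members with more reads tended to fall further. Across the 77 genes, which are not independent replicates and share the same 16 libraries, the mean normalized reads and the log2 fold change in sham hearts had a Spearman rho of -0.31, and the level in CPM per kilobase had a rho of -0.10. Both are descriptions, and the mean includes the libraries compared.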
